A study of Homo sapiens with 32 samples.

Results

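Mitochondrial ribosomal proteins are the nuclear-encoded proteins of the mitochondrial ribosome, and their promoters are described here by chromatin accessibility. A member was a 401-bp window of the deposited count table centred no more than 500 bp from a start of any transcript of a protein-coding gene called MRPL or MRPS plus a number, in GENCODE release 44 on hg38. The rule used positions and names only, and no measured value. It gave 145 of the 212358 windows. All 78 genes of that name had at least 1 window, 49 named MRPL and 29 named MRPS. The letters L and S refer to the large and small subunit. They were read from the symbol only, and the subunit of each protein was not checked. Of the genes, 26 had 1 window, 38 had 2, 11 had 3 and 3 had 4. The 2 windows between MRPL46 and MRPS11, which start back to back, belong to both genes.

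ATAC-seq measures how readily the transposase Tn5 cuts and tags DNA in nuclei. The cells were HEK_CloneZD29, a single clone of the established kidney-derived line HEK293T, with an inducible degron tag on ZNF143. ZNF143 is a zinc finger transcription factor that binds many promoters. The control group was labelled DMSO, although the treatment protocol speaks of no treatment, and the other group received 50 nM dTAGV-1 for 30 minutes, a degrader that brings a ubiquitin ligase to the tag. Counts were used from replicates 9 to 16 of each group, 8 libraries against 8. The degron genotype is written in the labels of replicates 1 to 8 and in the series' design, and replicates 9 to 16 carry the same clone name. The labels do not say that replicates came from separate cultures, so p-values measure the spread between these libraries, which may be technical. The ZNF143 protein level was not analysed here.

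The mitochondrial ribosome translates the few messenger RNAs of the mitochondrial genome, which encode core subunits of the respiratory chain and the ATP synthase. Its RNAs are made in the organelle, while its proteins are made in the cytosol and imported, so their genes depend on nuclear promoters. Some members have counterparts in bacterial ribosomes, such as MRPL12 of the stalk that recruits translation factors, and others, such as MRPS22 and MRPS26, are specific to mitochondria.

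Most members stayed within narrow bounds of the control level, and a few had lower values after dTAGV-1. No member passed an adjusted p of 0.05 over all 185040 tested windows, in either direction, in the main fit, which has no term for replicate number. With such a term 4 members were called lower, beside 463 of 31702 tested windows at coding starts. The lowest values relative to control were at MRPS26, MRPL54, MRPL50 and MRPL48, at 66.8%, 69.9%, 73.2% and 75.5% of the control level. All 4 passed once 1 control library with flat signal, replicate 12, was left out, beside 0.331% of tested windows called lower. The signal was also flatter in control replicate 11 and in dTAGV-1 replicates 11 and 12, which stayed in that fit. A sequence element with the letters CTACA, 2 free bases and TCCC stood in the MRPS26, MRPL54 and MRPL50 windows and in 6 other members, and the fold change was negative in all 9.

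The sequences are shown because MRPS26, MRPL54, MRPL50 and MRPL24 share that element, which MRPL48 lacks. The 3 members with the core of the ZNF143 site and without the element did not have lower values. ZNF143 sites have a core that reads CCCA, a free base, A or C, then ATGC. In a longer form known from other promoters, the core follows directly on an upstream stretch with ACTACA. The element above ends in CCC, the letters that open the core. At MRPL24 and MRPL42 an element runs on into the core. At MRPL50, MRPS25, MRPS22 and MRPL34 it runs on into a close variant of the core. No close variant follows it at MRPS26, MRPL54 and MRPL19. The separate parts of core and element were not tested. The core and the element were searched on both strands of all windows. The upstream element was chosen after the sequences of the windows with the smallest p had been read, so that its presence in those windows is a description. Each line below gives 30 bases of hg38, 5′ to 3′, on the strand of the element, with the element in capitals.
MRPS26, chr20:3045978-3046007, plus strand, outside exons: agcccgaggaCTACAGGTCCCaaggttccc
MRPL54, chr19:3762617-3762646, plus strand, outside exons: tccacggggcCTACAACTCCCaaacaccct
MRPL50, chr9:101398713-101398742, minus strand, outside exons: agctactggaCTACATTTCCCagcgtgcaa
MRPL50, chr9:101398778-101398807, minus strand, outside exons: gccccctcaaCTACAACTCCCgtcatgctc
MRPL24, chr1:156741123-156741152, minus strand, overlapping an exon of MRPL24: tacacttggaCTACAACTCCCagaaagtcg
MRPL24, chr1:156741184-156741213, minus strand, overlapping an exon of MRPL24: tagcggcggaCTACAACTCCCagcatgctg
MRPL24, chr1:156741348-156741377, minus strand, overlapping an exon of MRPL24: tctctagaaaCTACAATTCCCagcggcctc
MRPL19, chr2:75646767-75646796, minus strand, overlapping an exon of MRPL19: cacgtcaagaCTACAGCTCCCagtaatcag
MRPS25, chr3:15065360-15065389, minus strand, outside exons: cgaaggccgcCTACAAGTCCCagagtgctc
MRPL42, chr12:93467440-93467469, plus strand, outside exons: cccgcggagaCTACATTTCCCagaatgccc
MRPS22, chr3:139343933-139343962, plus strand, overlapping an exon of MRPS22: tttaactagaCTACATTTCCCagagtgctg
MRPL34, chr19:17305793-17305822, plus strand, outside exons: ttaggagaaaCTACATTTCCCataatcctt

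The next lines show the 3 member windows that hold the core within 100 bp of the centre but not the upstream element. Here the capitals mark the core.
MRPS16, chr10:73252676-73252705, plus strand, overlapping an exon of MRPS16: ccctatacttCCCACAATGCaacacggtga
MRPL11, chr11:66439064-66439093, minus strand, outside exons: aactaccataCCCACAATGCtatggggtat
MRPL46 and MRPS11, chr15:88467378-88467407, plus strand, overlapping an exon of MRPL46: ctttcgttctCCCACAATGCaccgcggctc

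For context, 200 bases of the MRPS26 promoter window follow, with the element in capitals. They lie at chr20:3045852-3046051 on the plus strand, the strand of the gene, between annotated exons.
MRPS26 promoter: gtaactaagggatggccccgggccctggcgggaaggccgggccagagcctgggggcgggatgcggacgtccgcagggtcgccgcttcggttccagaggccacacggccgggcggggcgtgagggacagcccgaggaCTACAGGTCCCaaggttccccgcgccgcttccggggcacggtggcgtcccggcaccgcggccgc
The divergent promoter of MRPL50 and ZNF189, a zinc finger gene on the opposite strand, holds the element at 2 places in 200 bases at chr9:101398651-101398850 on the minus strand. At both places the element runs on into a close variant of the core, and the capitals include the variant only at the first.
MRPL50 promoter: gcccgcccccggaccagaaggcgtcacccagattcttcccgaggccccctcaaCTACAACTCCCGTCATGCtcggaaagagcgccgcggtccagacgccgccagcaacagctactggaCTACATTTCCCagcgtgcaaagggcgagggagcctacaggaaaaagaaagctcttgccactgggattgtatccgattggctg

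Library totals ran from 2275856 to 11418578 counts in control and from 3373219 to 13671039 after dTAGV-1. No pair of libraries of a group agreed within sampling noise, with a chi-square per degree of freedom of at least 1.63 over 56 pairs. Control replicate 12 stood apart. Its top decile of windows held 32.0% of its counts, against 48.1% to 49.5% in the 12 libraries of the other numbers than 11 and 12, which is what flat signal looks like. It was the lowest control library in 106 of the 138 tested members, or 76.8%, and lay a median of 0.63 below the other controls on the log2 scale. Over all tested windows that median was 0.03 above them. The share in the top decile was also lower in the other libraries numbered 11 and 12, at 45.9% in control replicate 11, 41.9% in dTAGV-1 replicate 11 and 39.1% in dTAGV-1 replicate 12. The counts of calls and the 5 windows with the smallest p are therefore also given without control replicate 12 and without both libraries numbered 12.

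Levels are in log2 CPM (counts scaled to a common library size) with TMM scaling, over windows of equal width, so that genes can be set side by side. The members were open promoters. Their median control level was 3.79, with quartiles of 3.19 and 4.43, against 3.14 for all windows at starts of coding genes and 1.42 for all tested windows. Of the 138 tested members, 106 lay above the median of coding starts. By the strongest window of each gene the median was 4.31 for the members, 4.15 for genes named MRPL and 4.53 for genes named MRPS. The same measure gave 4.56 for cytosolic ribosomal protein genes, 4.54 for nuclear genes of respiratory chain subunits and 4.14 for all coding genes.

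The 5 most open promoters were those of MRPL37, MRPL24, MRPS33, MRPL50 and MRPL18. MRPL37, a large subunit protein specific to mitochondria, had control values from 5.48 to 6.32 with a median of 6.10, and 6.07 ± 0.26 (SD, n = 8) as the mean. MRPL24, the counterpart of a bacterial protein that starts large subunit assembly, had 6.03 ± 0.30 (SD, n = 8), and MRPS33 of the small subunit had 5.99 ± 0.28 (SD, n = 8). MRPL50 followed with 5.99 ± 0.44 and MRPL18 with 5.84 ± 0.50 (SD, n = 8 each). The means of these 5 neighbours lay within 1 SD of one another. The SD between libraries does not measure differences between windows of the same libraries, so their order was not tested and is not claimed.

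At the other end were MRPL20, MRPS5, MRPL13, MRPL35 and MRPL23, all counterparts of bacterial ribosomal proteins. MRPL20 had a control mean of 3.19 ± 0.43 and MRPS5 one of 3.16 ± 0.51, which overlapped (SD, n = 8 each). MRPL13 had 2.80 ± 0.18 and MRPL35 2.45 ± 0.36 (SD, n = 8 each). MRPL23, a protein near the exit of the peptide tunnel, had 0.79 ± 1.34 (SD, n = 8), with single libraries from -2.05 to 2.19. Its values after dTAGV-1 averaged 1.06 ± 0.50 (SD, n = 8). The MRPL23 window had 274 counts in all and overlaps another MRPL23 window that had 0 counts in all libraries. Its low level is therefore not read as a less open promoter, as with the untested windows described below.

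**Figure D1:**
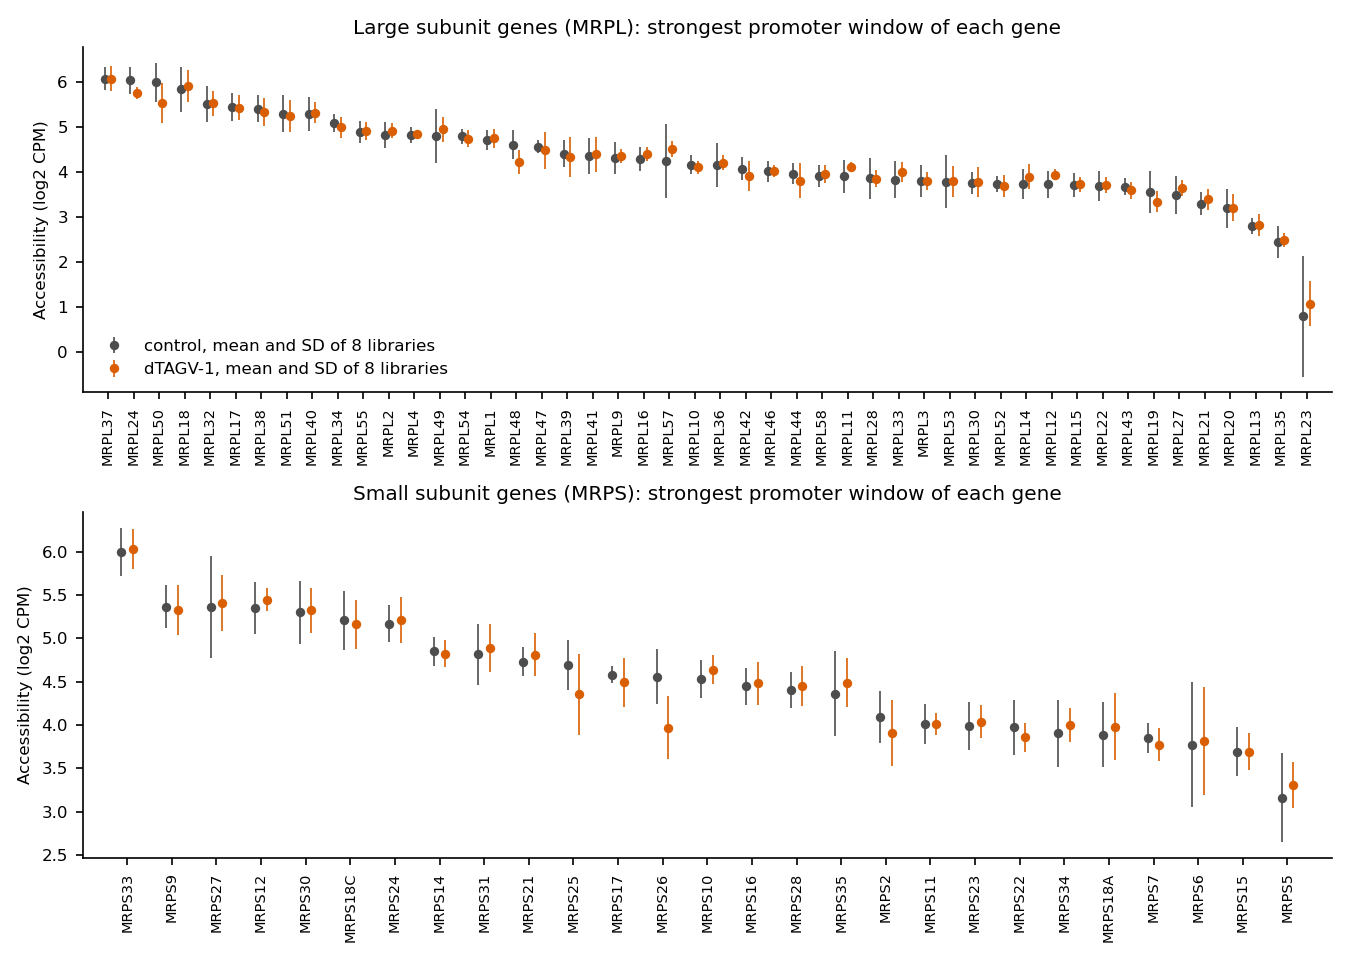
Accessibility of the strongest promoter window of each gene in log2 CPM, ordered by the control mean. Genes named MRPL are above and genes named MRPS below, and the panel titles take the subunit from the symbol. Points are means and bars are SDs of 8 libraries in control (grey) and after dTAGV-1 (orange). Control means run from 6.07 at MRPL37 to 0.79 at MRPL23, and orange points lie below grey ones at MRPS26, MRPL50, MRPL48, MRPL24 and MRPS25, among others.

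The strongest window of a gene usually sat just upstream of the start. In the 75 genes with a tested window, its centre was upstream in 60, downstream in 13 and at the start in 2, and within 100 bp of it in 62. The median offset was -32 bp. The 10 windows centred more than 100 and up to 250 bp upstream had the highest median level, 5.19, and 9 of them were the strongest window of their gene. The 66 tested windows centred upstream within 100 bp had a median of 4.05. Beyond 250 bp the medians were lower, 3.16 upstream and 2.69 downstream. These counts take the windows between MRPL46 and MRPS11 once for each gene. Of all member windows, 38 had their centre between genes, 36 in a UTR, 46 in an intron, 9 in a coding exon and 16 in a noncoding exon.

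**Figure D2:**
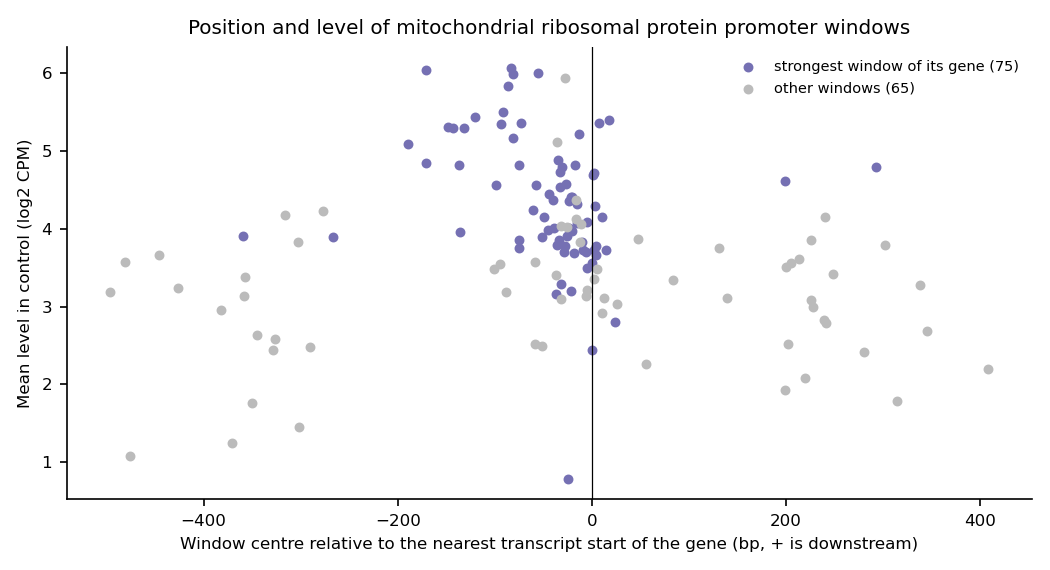
Mean control level of each tested member window in log2 CPM against the distance of its centre from the nearest transcript start of its gene in bp, with downstream positive; purple points are the strongest window of a gene and grey points are the others. Purple points crowd within 100 bp of the start, most of them upstream of it, and the levels fall towards 500 bp on both sides.

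Member windows were often shared. Overlap with another member window was found for 85 of the 145, so that neighbours share counts. A start of another coding gene lay within 500 bp of 54 windows, at 30 of the 78 genes. Among these were MRPL50 with ZNF189, MRPL57 with SKA3, MRPL13 with MTBP and MRPS6 with SLC5A3. At such windows the signal cannot be assigned to one gene.

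The comparison of dTAGV-1 with control asked whether 30 minutes of ZNF143 degradation changed these promoters. For most it left room only for changes of less than 1.5-fold. The median log2 fold change of the 138 tested members was -0.01, with quartiles of -0.07 and 0.07, and 71 values were negative. Over all tested windows the median was 0.01, and over coding starts it was also 0.01. The 95% interval lay inside 1.5-fold in both directions at 129 members, or 93.5%, against 82.9% of coding starts and 47.7% of all tested windows. Standard errors of the members were between 0.13 and 0.29, with a median of 0.14. The median was 0.15 at coding starts and 0.23 over all tested windows, so these shares depend on precision as well as on the size of change.

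With edgeR's quasi-likelihood test and Benjamini-Hochberg adjustment over the whole table, 0 members were called lower and 0 higher, beside 0.213% and 0.00108% of all tested windows and 0.628% of coding starts called lower. At an unadjusted p under 0.05, 6 members were lower and 0 higher. The 6 make 4.35% of the tested members, beside 1.55% of all tested windows and 2.24% of windows at coding starts; for higher values the shares were 1.3% and 0.839%. DESeq2 called 1 member lower, MRPS26, with an adjusted p of 0.0080, beside 0.272% of tested windows. No member had all 8 libraries after dTAGV-1 below all 8 control libraries, which 0.0713% of tested windows did. Against the 7 control libraries other than replicate 12, 3 members did, MRPS26, MRPL54 and MRPL24, beside 0.265% of tested windows.

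MRPS26, a small subunit protein specific to mitochondria, gave the smallest p. Its window at chr20:3045794-3046194, with its centre at -58 bp and between genes, had control values from 3.85 to 4.88 with a median of 4.68. After dTAGV-1 the values ran from 3.17 to 4.31 with a median of 4.11. The groups overlapped only through control replicate 12, since the next lowest control was 4.41. The log2 fold change was -0.58 ± 0.15 (SE, 8 libraries against 8), with an edgeR adjusted p of 0.0881. Without control replicate 12 it was -0.64 ± 0.12 (SE) with an edgeR adjusted p of 0.00077. The second MRPS26 window, centred at -316 bp, gave -0.20 ± 0.14 (SE).

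MRPL54, a large subunit protein specific to mitochondria, came next. Its window at chr19:3762450-3762850, centred at -32 bp and between genes, had control values from 2.72 to 4.52 with a median of 4.20, and from 3.37 to 3.89 with a median of 3.60 after dTAGV-1. Control replicate 12 held the lowest value of all 16 libraries, while the other controls were at 4.00 or above. The log2 fold change was -0.52 ± 0.15 (SE, edgeR adjusted p = 0.34), and -0.61 ± 0.12 (SE, edgeR adjusted p = 0.0014) without that library. The lower values were at this window and not at the stronger MRPL54 window, centred in an intron at 293 bp, which gave -0.06 ± 0.13 (SE).

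MRPL50 and MRPL48 are also large subunit proteins specific to mitochondria. At the window shared by MRPL50 and ZNF189, chr9:101398499-101398899 and centred between the genes at -81 bp, control values ran from 4.97 to 6.27 with a median of 6.17. After dTAGV-1 they ran from 4.64 to 6.02 with a median of 5.67, and 6 of the 8 libraries were below the lowest control other than replicate 12. The log2 fold change was -0.45 ± 0.17 (SE, edgeR adjusted p = 1.00), and -0.54 ± 0.12 (SE, edgeR adjusted p = 0.017) without control replicate 12.
At MRPL48, chr11:73787956-73788356 and centred in an intron at 199 bp, control values ran from 3.85 to 4.86 with a median of 4.69. The values after dTAGV-1 ran from 3.78 to 4.48 with a median of 4.31. Here 7 of 8 libraries were below the lowest other control. The log2 fold change of -0.41 ± 0.14 (SE, edgeR adjusted p = 1.00) became -0.47 ± 0.11 (SE, edgeR adjusted p = 0.038) without control replicate 12.

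MRPL24 had 1 window, chr1:156741102-156741502, centred in its UTR at -171 bp of the nearest start. Control values ran from 5.33 to 6.24 with a median of 6.13, and values after dTAGV-1 from 5.52 to 5.95 with a median of 5.79. All 8 were below the lowest control other than replicate 12, at 5.997. The log2 fold change was -0.30 ± 0.15 (SE, edgeR adjusted p = 1.00). Without control replicate 12 it was -0.38 ± 0.10 (SE), with an edgeR adjusted p of 0.13, and without replicates 11 and 12 of both groups it was -0.35 ± 0.06 (SE), with an edgeR adjusted p of 0.00019.

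**Figure D3:**
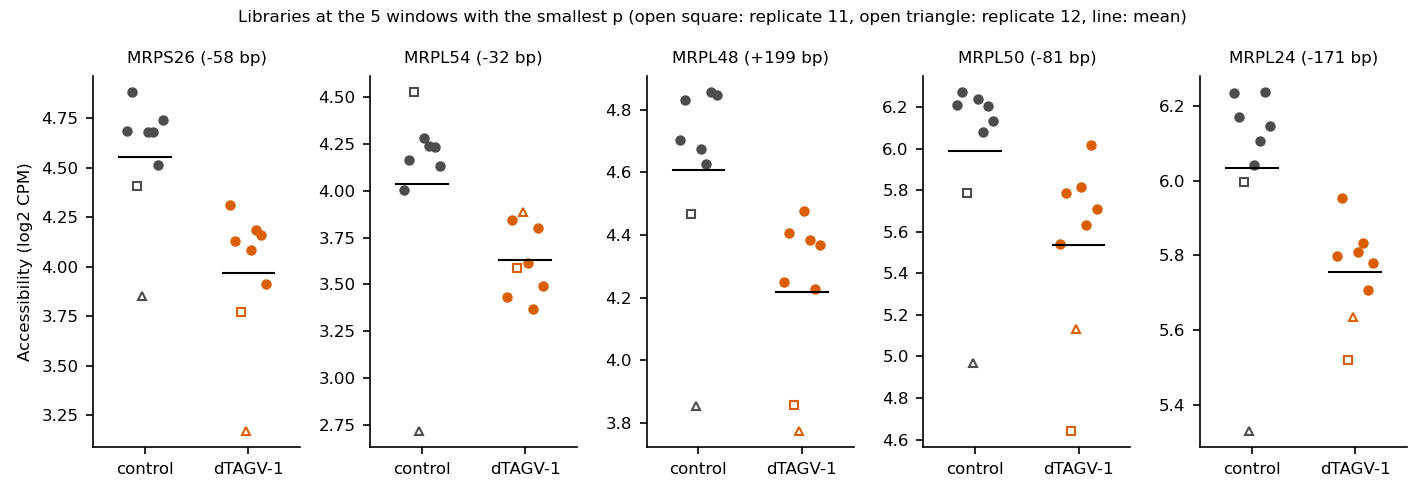
Accessibility in log2 CPM of each of the 16 libraries at the 5 member windows with the smallest p, control in grey and dTAGV-1 in orange; open triangles are replicate 12, open squares replicate 11 and lines the group means. At MRPS26, MRPL54 and MRPL24 all orange points lie below all grey points other than the triangle.

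Leaving out control replicate 12 gave 4 members called lower, MRPS26, MRPL54, MRPL50 and MRPL48, beside 0.331% of tested windows. Without both libraries numbered 12, the control and the dTAGV-1 one, 5 were called, these and MRPL24, beside 0.364%. The log2 fold changes were then -0.57 ± 0.10 (SE, edgeR adjusted p = 0.00021) at MRPS26 and -0.63 ± 0.11 (SE, edgeR adjusted p = 0.00014) at MRPL54. MRPL50 gave -0.49 ± 0.11 (SE, edgeR adjusted p = 0.0055), MRPL48 -0.42 ± 0.10 (SE, edgeR adjusted p = 0.025) and MRPL24 -0.36 ± 0.09 (SE, edgeR adjusted p = 0.031). A scaling that follows abundance in each library (loess) gave 5, with MRPL24 added, beside 0.366%. Without replicates 11 and 12 of both groups 5 were called, beside 0.411%. In replicates 13 to 16 alone the same count was 5, again these genes, beside 0.344%. In replicates 9 to 12 alone none was called, and the fold changes there were -0.60 for MRPS26, -0.34 for MRPL54, -0.56 for MRPL50, -0.42 for MRPL48 and -0.25 for MRPL24, with standard errors of 0.27 to 0.32. In replicates 13 to 16 they were -0.57, -0.65, -0.37, -0.39 and -0.36 in the same order. The split into replicates 9 to 12 and 13 to 16 and the fit without both libraries numbered 12 were added after the libraries had been compared.

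Of the 5 windows with the smallest p among higher values, none had an unadjusted p under 0.05. MRPL12, the stalk protein, gave 0.25 ± 0.15 (SE) at its weaker window at -329 bp and 0.18 ± 0.13 (SE) at -9 bp. MRPL13 at -52 bp gave 0.17 ± 0.14 (SE), MRPL57 at -382 bp 0.17 ± 0.17 (SE) and MRPL11 at -267 bp 0.15 ± 0.14 (SE). At MRPL12 -9 bp, control values ran from 3.20 to 4.08 and values after dTAGV-1 from 3.78 to 4.11, so that the groups overlapped.

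The upstream element was found in 9 of the 138 tested members, or 6.52%, and in 2.34% of all tested windows at coding starts, counted over the whole window on both strands. All 9 had a negative fold change, with a median of -0.30 and a range from -0.58 to -0.10. The 129 members without it had a median of 0.00. Of the 6 members lower at an unadjusted p under 0.05, 5 held the element and MRPL48 did not. The windows it was read from are among these, so the members' counts describe them and test nothing.

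The same element can be read at coding starts that are no members, which were not used to choose it. There, 733 tested windows held it, and 123 of them were called lower, or 16.8%, with a median log2 fold change of -0.25. Of the 30831 without it, 76 were called lower, or 0.247%, with a median of 0.01. No test of this difference was made. These windows were read in the same libraries and the same fit as the members, with earlier results of these data known.

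Beside MRPS26, MRPL54, MRPL50 and MRPL24, the element stood in windows of MRPL19, MRPS25, MRPS22, MRPL42 and MRPL34. Of these only MRPL19 had an unadjusted p under 0.05. MRPL19, whose bacterial counterpart lies at the interface of the subunits, gave -0.29 ± 0.14 (SE) at its start, with control values from 2.45 to 3.94 (median 3.69) and values after dTAGV-1 from 3.11 to 3.73 (median 3.29). MRPS25 gave -0.30 ± 0.15 (SE), with control values from 4.03 to 4.93 (median 4.76) and values after dTAGV-1 from 3.34 to 4.75 (median 4.57). MRPS25 is a small subunit protein, and 7 of its 8 libraries after dTAGV-1 were below the lowest control other than replicate 12. Its means in replicates 9 to 12 were 4.64 in control and 4.08 after dTAGV-1. Those numbers include the flatter dTAGV-1 replicates 11 and 12. In replicates 13 to 16 the means lay closer together, at 4.75 in control and 4.62 after dTAGV-1. MRPS22, altered in some inherited mitochondrial diseases, gave -0.15 ± 0.13 (SE), with 7 of 8 libraries also below the lowest other control. MRPL42 gave -0.16 ± 0.14 (SE) and MRPL34 -0.10 ± 0.14 (SE). These genes are named because they hold the element, which was seen after their values.

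The core itself stood within 100 bp of the centre in 4 members, or 2.90%, beside 0.908% of coding starts. Only MRPL42 among them also held the upstream element, where the core begins with the CCC that ends the element. The other 3 did not have lower values. MRPS16, counterpart of a bacterial small subunit protein, had control values from 4.06 to 4.75 (median 4.44) and values after dTAGV-1 from 4.01 to 4.70 (median 4.61). Its log2 fold change was 0.04 ± 0.14 (SE), with a 95% interval from -0.24 to 0.31. MRPL11, of the centre that activates translation factors, gave 0.15 with an interval from -0.12 to 0.42. The window shared by MRPL46 and MRPS11 gave -0.02 with an interval from -0.29 to 0.24. In the whole window MRPL24 held the core too, at the second of its upstream elements. With both the core and the element present, MRPL24 gave -0.30 and MRPL42 -0.16. In replicates 13 to 16 alone the MRPL42 value was 0.02.

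**Figure D4:**
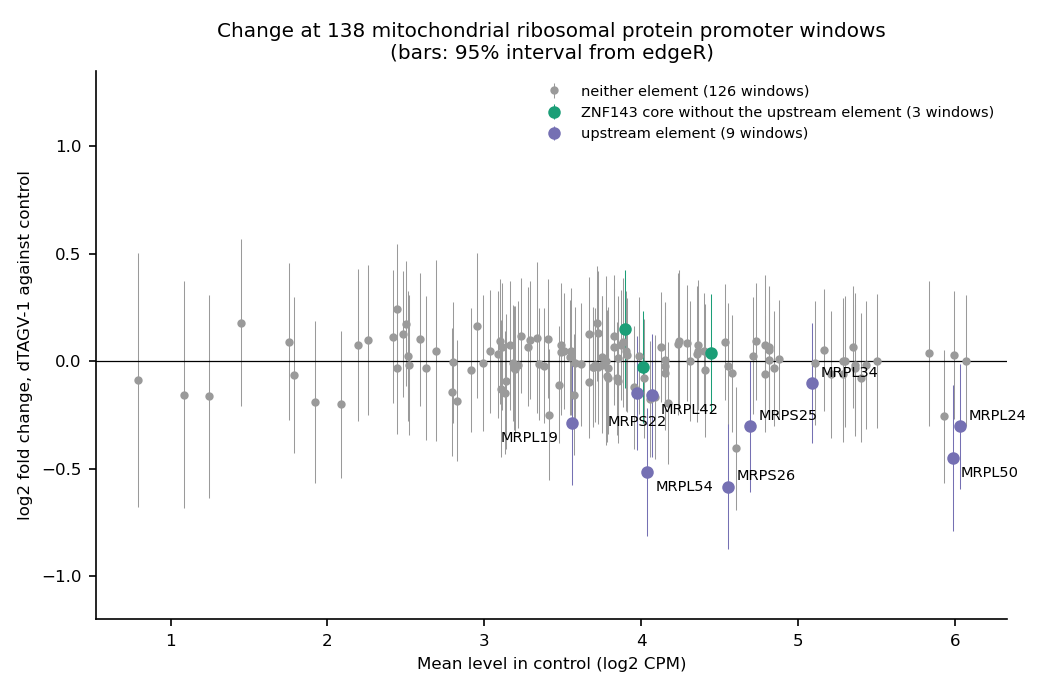
Log2 fold change of dTAGV-1 against control at each of the 138 tested member windows against the mean control level in log2 CPM, with 95% intervals from edgeR; purple points hold the upstream element, green points the ZNF143 core alone and grey points neither. All 9 purple points lie below 0, from -0.58 at MRPS26 to -0.10 at MRPL34, and the 3 green points lie between -0.02 and 0.15.

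Letters of other promoter factors were common in the members. The ETS letters CCGGAAG stood within 100 bp of the centre in 29 tested members, or 21.0%, beside 8.76% of coding starts. The NRF1 letters GCGCANGCG, in which N is any base, stood in 13.8% beside 6.68%, and the YY1 letters AANATGGCG in 8.70% beside 2.45%. At least 1 of these 3 was in 49 members, or 35.5%, beside 16.3%. ETS factors, NRF1 and YY1 are known activators of nuclear genes for mitochondrial proteins. The NFY letters CCAAT stood in 22.5% beside 21.7%, the SP and KLF letters GGGCGG in 50.0% beside 53.8%, and the CRE letters TGACGTCA in 1 member, MRPL4. Members with the ETS letters had a median log2 fold change of -0.01 and members with the NRF1 letters also -0.01. Both strands were searched, and a match is a run of letters and not a measured binding site.

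Of the 145 members, 7 at 4 genes had too few counts to be tested. Both windows of MRPS18B, one of several related mitochondrial ribosomal proteins, had 0 counts in all 16 libraries. So did both windows of MRPS36, a protein also described as a part of a dehydrogenase complex, and the 2 outer windows of MRPL23. The window of MRPL45, which ties the ribosome to the inner membrane, had 13 counts in all, at most 4 in a library. In the authors' peak calls the -log10 q of these windows reached 648 at MRPS36, 445 at MRPL45 and 146 at MRPS18B, and summits called in replicates 1 to 8 lay in the windows of these 3 genes with scores up to 285. The 2 outer MRPL23 windows had a -log10 q of 19.0 and 11.99 and held no such summit.

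In the hg38 sequence file used here, which has alternate sequences beside the chromosomes, the central 101 bases of all 7 untested windows occurred more than once. For MRPS18B 6 further copies were on other sequences, for MRPS36 and for MRPL23 1, and MRPL45 had 2 on the primary chromosomes and 1 elsewhere. Of the 138 tested members, 137 had a single copy. The exception was the MRPL4 window at -302 bp, with 9 copies on primary chromosomes. Windows at 0 in all libraries made up 89 of 111 windows within 1 Mb of MRPS18B and 81 of 164 near MRPL45. They were fewer near MRPL23, 34 of 190, and near MRPS36, 13 of 105. Among genes whose windows were all tested, examples were 19 of 142 near MRPL36 and 0 of 197 near MRPL1. Over all windows counted, 2816 were at 0, or 1.33%. How reads with several matches were treated is not given in the sources used here, and its part in the zeros was not tested. The 0 counts are therefore not read as closed promoters.

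MRPS6 and MRPL41 differed between sets of replicate numbers, in both groups alike. At all 3 windows of MRPS6, which also serve SLC5A3, a transporter of myo-inositol, all 8 libraries of replicates 13 to 16 lay above all 8 of replicates 9 to 12, in control and dTAGV-1 alike. At the window centred at 4 bp, control values averaged 3.21 ± 0.57 in replicates 9 to 12 and 4.34 ± 0.17 in replicates 13 to 16 (SD, n = 4 each). After dTAGV-1 the means were 3.28 ± 0.34 and 4.34 ± 0.18 (SD, n = 4 each). At the window centred at 345 bp the mean over both groups rose from 2.13 ± 0.26 to 3.24 ± 0.21 (SD, n = 8 each). Both windows of MRPL41, a large subunit protein specific to mitochondria, showed the same order, from 4.05 ± 0.23 to 4.70 ± 0.11 at -24 bp (SD, n = 8 each).

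The other 133 tested members included 0 windows separated in this way, beside 0.393% of all tested windows with replicates 13 to 16 above and 0.0627% below. The 15 tested windows within 100000 bp of the MRPS6 windows had a median difference of -0.08, from -0.41 to 0.38, with 0 separated. The differences there and in the next sentence compare the later replicates with replicates 9 and 10, leaving out the flat libraries numbered 11 and 12. By that measure the difference was 1.14, 0.87 and 0.78 at the 3 MRPS6 windows and 0.51 and 0.48 at MRPL41. The labels name no batch for these numbers, and the pattern was noticed in the data. The dTAGV-1 contrast at these windows compares groups with 4 libraries from each set of numbers.

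**Figure D5:**
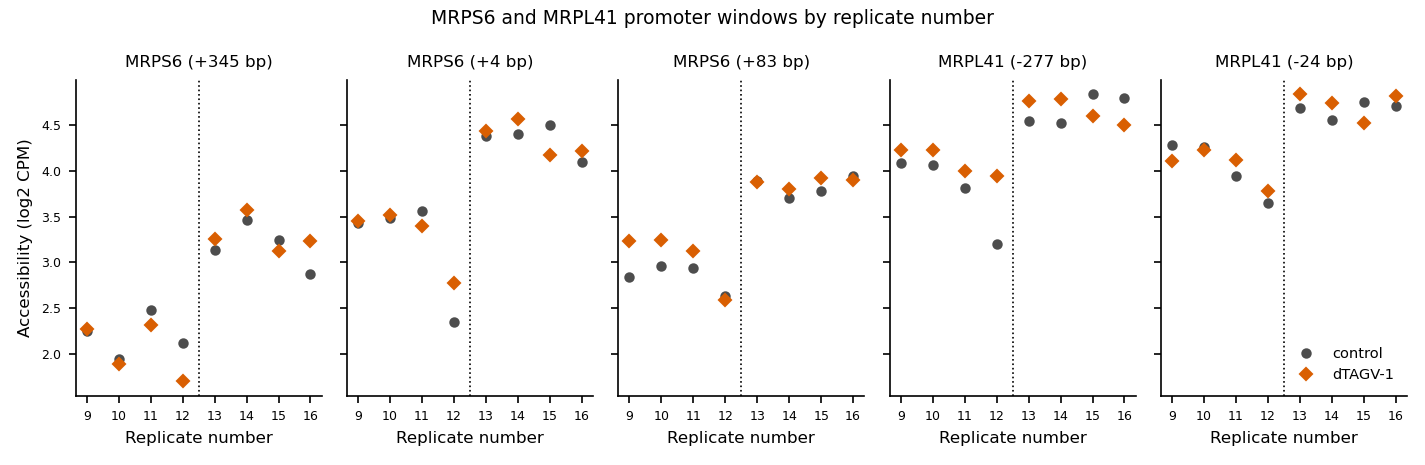
Accessibility in log2 CPM of the 16 libraries by replicate number at the 3 windows of MRPS6 and the 2 windows of MRPL41, control as grey circles and dTAGV-1 as orange diamonds, with a dotted line between replicates 12 and 13. All points to the right of the line lie above all points to its left in each panel, and the colours overlap on both sides.

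Genes of the same process with other names were read from the same fit. The list of mitochondrial ribosome proteins with other symbols also took in the membrane protein OXA1L. The list had 14 tested windows at 6 genes, of which 0 were called. At an unadjusted p under 0.05 the one window was that of OXA1L, which inserts new proteins into the inner membrane, with 0.31 ± 0.15 (SE). The 17 genes of translation factors and regulators had 30 tested windows with 0 called, and the one at an unadjusted p under 0.05, of MTRF1, a release factor, gave -0.36 ± 0.13 (SE). The 31 genes of ribosome assembly and RNA modification had 62 tested windows with 0 called. The 2 at an unadjusted p under 0.05 were those of ERAL1, which chaperones the small subunit RNA, at -0.40 ± 0.14 (SE), and of DHX30, an RNA helicase, at -0.34 ± 0.16 (SE). Without replicates 11 and 12 of both groups DHX30 was called lower, at -0.35 ± 0.09 (SE, edgeR adjusted p = 0.046). Median log2 fold changes were 0.04, 0.06 and 0.00 for the 3 lists. For comparison, 3 of 145 tested windows of cytosolic ribosomal protein genes and 2 of 138 of respiratory chain genes were called lower, beside 0.213% of all tested windows, with medians of -0.01 each. Without replicates 11 and 12 of both groups these counts were 5 and 4, with the loess scaling 3 and 4, and with no filter on low counts 1 and 1. Both comparison lists share some windows with the members, here and in the levels above. Such windows lie between MRPL49 and FAU, MRPL36 and NDUFS6, and MRPL47 and NDUFB5.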

How the data were processed

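ATAC-seq libraries of 1 HEK293T clone were described for 32 samples, and counts were used for the 16 of replicates 9 to 16. Window counts are whole numbers that were not normalized, as deposited by the authors. The table also holds the authors' -log10 q of each window, and the deposited summit list of replicates 1 to 8 holds a -log10 score, starting at 2.0; both were used to describe windows only. Per the submitters' processing notes, cutadapt 1.8.1, Bowtie2 2.4.4, SAMtools 1.9 and hg38 were used. The peak caller, the counting and any Tn5 shift are not given in the sources used here. The number of sample columns left unused was 0.

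Counts were tested with edgeR 4.0.16 (filterByExpr, TMM, quasi-likelihood test, no covariate) on the whole table, with Benjamini-Hochberg adjustment at 0.05. Levels are log2 CPM with a prior count of 2. Standard errors and 95% intervals derive from the fitted F. The fit was run on simulated counts with a fixed spread and the same profile in every library. That run holds no flat libraries, pairing or shift between replicate numbers, so it does not cover these features. Same-numbered libraries were not treated as pairs in the main fit, because the labels name no pairing. Their correlations were all positive, from 0.03 at replicate 9 to 0.34 at replicate 12, so the replicate block is given as an alternative. Alternatives were RLE scaling, other filters, a loess offset, a replicate block, DESeq2 1.42.0 and left-out libraries.

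Named windows were the 5 lower and 5 higher with the smallest p, those with the ZNF143 core within 100 bp of the centre, the 5 genes with the highest and the 5 with the lowest control mean, and the 3 with the largest control spread. Others are named by a shared feature stated in the text. Members and lists were chosen with earlier results of these data known. Sequences are from the hg38 genome file.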

Additional observations from a re-analysis of the deposited data

Results flagged for a closer look

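In groups of 8 libraries, the named windows were screened for a library whose gap to its nearest neighbour was a large share of the group's range (Dixon's criterion at 95%). Chance gives about 1 such value in 20 groups. Of 42 groups, 12 held one, and in each it was control replicate 12, which had the lowest share of counts in its top windows. It was the lowest control at MRPS26 (3.85, next 4.41), MRPL54 (2.72, next 4.00), MRPL48 (3.85, next 4.47), MRPL50 (4.97, next 5.79) and MRPL24 (5.33, next 5.997), in log2 CPM. The same held at MRPL57 -382 bp (1.08, next 2.85), MRPL37 (5.48, next 6.02), MRPS33 (5.37, next 5.86), MRPL18 (4.68, next 5.60), MRPL20 (2.24, next 3.099) and MRPS5 (1.99, next 3.05). At the weak MRPL12 window at -329 bp it was the highest control instead (3.02, next 2.54). Its low values at the MRPS26, MRPL54, MRPL48 and MRPL50 windows brought the control means closer to those after dTAGV-1 and widened the control spread. The largest control spreads among the members were at MRPL23 (SD 1.34, and 0.75 without this library) and at the MRPL57 windows at -61 bp (0.82, and 0.15 without it) and -382 bp (0.78, and 0.21 without it).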

How the results depend on the processing

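Over all tested windows 395 were lower and 2 higher as reported. Leaving out single libraries gave 318 to 627 lower and 0 to 5 higher, and 0 to 4 members lower, the 4 only without control replicate 12. The member median log2 fold change then ran from -0.047 (without control replicate 12) to 0.021 (without dTAGV-1 replicate 11). DESeq2 gave 4 windows higher and 1 member lower, and the loess offset 678 lower, 5 higher and 5 members lower. Without replicates 11 and 12 of both groups there were 767 lower, 14 higher and 5 members lower. With the replicate block there were 742 lower, 11 higher and 4 members lower, and 5 respiratory chain windows lower; same-number correlations were 0.03 to 0.34, under 0.1 at 3 of 8 numbers, all positive, and 5 of 8 libraries of each group correlated best with their own number.

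The following were added after seeing the data. A term for replicates 9 to 12 against 13 to 16 gave 1 member lower, MRPS26, of 447 windows lower. Without both libraries numbered 12 there were 680 lower, 9 higher and 5 members lower. Replicates 9 to 12 alone gave 3 lower and 0 higher, with 1 member lower and 1 higher at unadjusted p under 0.05 and 37 members with intervals inside 1.5-fold. Replicates 13 to 16 alone gave 623 lower, 17 higher, 5 members lower, 1 member higher at unadjusted p under 0.05 and a member median of 0.025. Values near 0 changed sign: MRPL57 -382 bp to -0.015 in replicates 9 to 12; MRPL12 -9 bp to -0.018, MRPL42 to 0.019 and MRPL46/MRPS11 to 0.047 in replicates 13 to 16. Leaving out 1 library gave -0.068 to 0.013 for MRPL46/MRPS11, above 0 without control replicate 11 or 15 (0.0017), and -0.0022 (without control replicate 12) to 0.095 for MRPS16. The causes were not tested. RLE scaling, no filter and a mean CPM of at least 1, which kept more windows than filterByExpr, left 0 members called. Low counts limit the weak windows most, as at MRPL23, where a neighbouring window had 0 counts.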
